A study of Rattus norvegicus with 4 samples.

Results

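The cells described here are 50 natural killer (NK)-like lymphocytes of rat subcutaneous fascia, the loose connective tissue layer under the skin. They are 50 of 13820 fascia cells kept and of 37722 cells kept in the whole study, with 12 in fascia replicate 1 and 38 in fascia replicate 2. The cells were chosen by their own UMI counts of the gate genes, so the levels of those genes are given as a description with no test. Each had at least 500 genes, at most 20% mitochondrial unique molecular identifiers (UMIs, each 1 captured RNA molecule), at least 3 UMIs of Nkg7 and at least 1 of Ptprc. Each also had 0 UMIs over Cd3d, Cd3e and Cd3g together, fewer than 3 over the C1q genes and fewer than 10 of Lyz2. The study set 2 libraries of wild-type rat subcutaneous fascia beside 2 of wild-type rat skin, to compare which cells make up each tissue, by 10x Genomics 3' single-cell RNA sequencing. The tissues were digested enzymatically, red blood cells were lysed and dead cells were removed before loading, per the labels' protocols. The labels give no strain, age or sex, and do not say whether the libraries came from different animals, so p-values measure at most the spread between libraries. Where cell groups are compared with the library as a block, they measure only how the group differences vary between the 2 fascia libraries.

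NK cells are innate lymphocytes that kill infected or transformed cells without a rearranged antigen receptor. They sense their targets through C-type lectin-like receptors encoded by the Klr and Ly49 genes, many of which signal through the adaptors encoded by Tyrobp and Fcer1g. Killing uses perforin, which opens the target membrane, and granzymes, the serine proteases that enter through it, while chemokines such as those encoded by Ccl3, Ccl4, Ccl5 and Xcl1 call in other immune cells.

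Of the markers given for these cells, Nkg7, which encodes a membrane protein of cytotoxic granules, was part of the gate and is no check. Klrd1, which encodes the CD94 subunit of NK receptors, had UMIs in 12 of 12 and 36 of 38 cells of fascia replicates 1 and 2, with levels of 739 and 693 CPM (counts per 1e6 UMIs of the summed cells). Prf1, which encodes perforin, had UMIs in 9 of 12 and 30 of 38 cells, with 534 and 321 CPM. Among kept cells without Ptprc, Klrd1 had a UMI in 0.232% and 0.595% of cells and Prf1 in 0.0422% and 0.0517%, at median depths of 13646 and 10533.5 UMIs, against 10248.5 and 8356 UMIs in NK-like cells. Ncr1, the remaining marker, was not analysed here. The name therefore rests on 3 detected markers, 1 of them used by the gate.

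Most cells had UMIs of several NK genes that the gate did not use. The 7 genes Klrb1a, Tyrobp, Fcer1g, Klri1, Clnk, Klrd1 and Prf1 were picked from a longer NK gene list with earlier results of these data known. Of these 7, 45 of 50 cells had UMIs of at least 6, and 25 cells had all of them. This is a description and no test, and the same count was not made in T cells. Fcgr3a, also on the longer list, was at 0 in most cells. Of kept fascia cells without Ptprc, 1 of 4739 and 0 of 3868 had at least 6, although Klrb1a alone had a UMI in 26.9% and 20.0% of them and Clnk in 0.781% and 0.724%. Tyrobp and Fcer1g were detected together in 46 of 50 cells. A few cells of fascia replicate 2 stood apart. Cell 1 (35426 UMIs, marked as a doublet) held 838 UMIs of fibroblast and mural genes and 4 of the 7 NK genes. Cell 6 held 8534 haemoglobin UMIs among 12336, cell 10 had 63 fibroblast and mural UMIs and 1 of the 7 genes, and cell 38 had 2 of them. The totals of called genes are given with and without cells 1, 6 and 10. Without them, 114 of 115 called differences of named genes stayed called. Fascia levels and counts per gene list include these cells and were not made again without them.

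At the edge of the gate, 1 and 3 cells of fascia replicates 1 and 2 had exactly 3 Nkg7 UMIs, and Klrb1a was detected in 1 and 2 of them. Just outside, 0 and 7 cells had 2 Nkg7 UMIs, of which 6 had Klrb1a and 5 had Tyrobp. A further 3 cells of fascia replicate 2 had a single Cd3 UMI with enough Nkg7, and none of them had Klrb1a, Tyrobp or Fcer1g. The limits on Lyz2 and C1q left out 2 cells in each library, with median depths of 23523 and 24667.5 UMIs. The libraries shared few barcodes, 26 between the fascia libraries and 17 to 45 over all pairs.

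**Figure D1:**
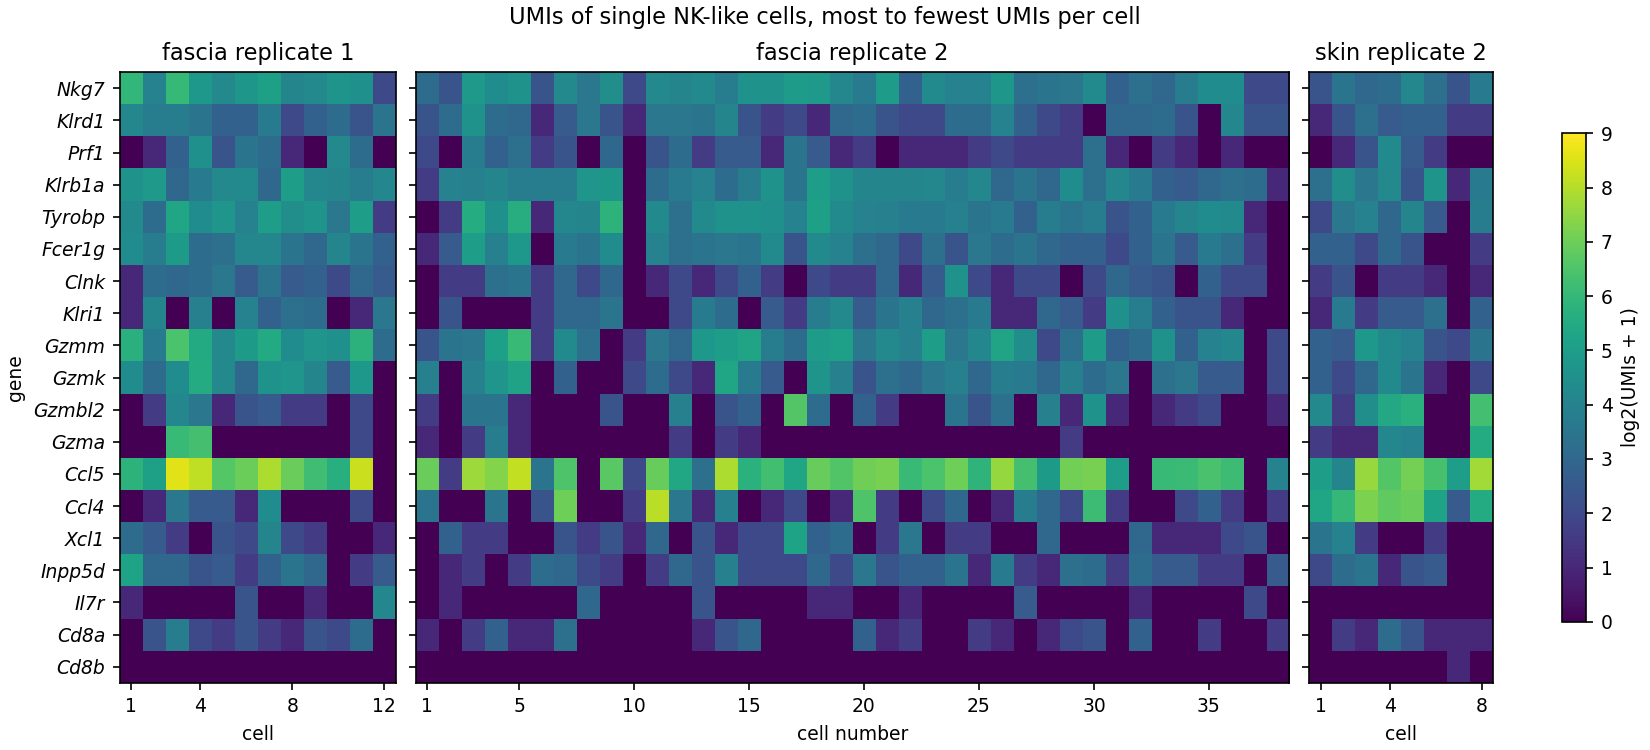
UMIs of 19 genes (rows, as log2 of UMIs + 1) in each NK-like cell (columns, from most to fewest UMIs in total) of fascia replicates 1 and 2 and skin replicate 2. Most fascia cells hold Klrb1a, Tyrobp, Fcer1g and Ccl5. Cells 1, 6, 10 and 38 of fascia replicate 2 lack at least 1 of Klrb1a, Tyrobp and Fcer1g. Cell 12 of fascia replicate 1 and cells 8, 32 and 37 of fascia replicate 2 lack Ccl5. Cd8b is at 0 in all 50 fascia cells.

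To set NK-like cells beside the lymphocytes most like them, UMIs were summed per fascia library over NK-like cells, over Nkg7-high T cells (at least 2 Cd3 UMIs and 3 of Nkg7; 65 and 167 cells) and over Nkg7-low T cells (at least 2 Cd3 UMIs, fewer than 3 of Nkg7; 144 and 316 cells). Levels are CPM of these sums, and differences are log2 values, NK-like over T, from edgeR's quasi-likelihood test with the library as a block and Benjamini-Hochberg adjustment over 9471 genes. Against Nkg7-high T cells 203 genes were called at an adjusted p under 0.05 (2.14% of genes tested), 131 of them higher and 72 lower (1.38% and 0.76%). Against Nkg7-low T cells 408 were called (4.31%), 225 higher and 183 lower (2.38% and 1.93%). The 2 comparisons share the NK-like sums. On simulated counts with the same spread for every gene, the test found 10.8% and 9.68% of 2-fold changes against Nkg7-high and Nkg7-low T cells. A gene that was not called may therefore still differ. Leaving out all cells marked as doublets, 1 of them NK-like and the others T cells, raised the calls to 451 and 682, and leaving out cells 1, 6 and 10 raised them to 576 and 824, with 49.7% and 43.4% of calls higher, against 64.5% and 55.1% with all cells. Gate genes are not counted, and genes that travel with the Cd3 genes, or with Nkg7 by which the T cells were divided, are not independent of the gate.

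NK identity genes were mostly higher in NK-like cells. Of 22 tested, 12 were higher and 0 lower than in Nkg7-high T cells (median log2 difference 2.49, against -0.02 over all genes), and 16 were higher and 0 lower than in Nkg7-low T cells (median 3.79, against -0.04). Besides the genes described below, Adamts14, Cd7, Klrb1c and Txk were called against Nkg7-high T cells, and Adamts14, Klrb1c, Klrk1 and Txk against Nkg7-low T cells.

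The signalling adaptor genes Tyrobp, Fcer1g and Clnk were higher in NK-like cells than in both T cell groups. Tyrobp, which encodes the adaptor DAP12, had 1677 and 1679 CPM in NK-like cells of fascia replicates 1 and 2, against 3.23 and 15.4 CPM in Nkg7-high and 131 and 320 CPM in Nkg7-low T cells. It was higher by 7.34 ± 0.45 (SE, adjusted p = 0.00395) and 2.93 ± 0.34 (adjusted p = 0.00929). Fcer1g, which encodes the Fc receptor gamma chain, had 1109 and 1006 CPM, against 9.69 and 22.8 CPM in Nkg7-high and 7.75 and 27.7 CPM in Nkg7-low T cells. Both genes had all NK-like sums above all T cell sums, as had 17.3% of all genes tested, and the low T cell values lie where cells without Ptprc also had UMIs (Tyrobp in 10.3% and 14.2% of them, Fcer1g in 9.58% and 11.5%). Clnk, which encodes an adaptor of the SLP-76 family, had 520 and 397 CPM, against 1.61 and 2.01 CPM in Nkg7-high and 34.2 and 46.0 CPM in Nkg7-low T cells, and was higher by 7.71 ± 0.35 (adjusted p = 0.00267) and 3.36 ± 0.22 (adjusted p = 0.00191). Fgr, which encodes a Src family kinase, had 130 and 101 CPM in NK-like cells and a total of 1 UMI in each library of Nkg7-high T cells. Hcst, which encodes DAP10, the adaptor that serves the NKG2D receptor, went the other way, with 527 and 439 CPM in NK-like cells against 1030 and 1146 CPM in Nkg7-high T cells (log2 difference -1.31 ± 0.16, adjusted p = 0.0155). Over the list of activating receptors and adaptors, 8 of 23 tested genes were higher and 1 lower than in Nkg7-high T cells, and 10 were higher and 1 lower than in Nkg7-low T cells, Syk and Plcg2 among the higher ones in both.

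Among lectin-like receptor genes, Klrb1a, Klri1 and Klri2 were higher than in both T cell groups, while Klre1 and Klrd1 were called only against Nkg7-low T cells, and the difference between those calls was not tested. Klrb1a, which encodes the activating rat receptor NKR-P1A, had 1424 and 1380 CPM in NK-like cells, against 102 and 166 CPM in Nkg7-high and 41.3 and 47.8 CPM in Nkg7-low T cells (log2 differences 3.28 ± 0.21 and 4.87 ± 0.22, adjusted p = 0.00395 and 0.0013). Klri1 and Klri2 encode an inhibitory and an activating receptor that each pair with the product of Klre1 in the rat. Klri1 had 554 and 598 CPM in NK-like cells, against 4.84 and 26.1 CPM in Nkg7-high and 6.46 and 2.87 CPM in Nkg7-low T cells, and was higher in both comparisons (adjusted p = 0.0085 and 0.0021). Klri2 had 68.4 and 151 CPM in NK-like cells and 3 UMIs in all over Nkg7-high T cells, a ratio of 89.4 (95% counting interval 29.2 to 445). Klre1 itself had 356 and 355 CPM in NK-like cells and 182 and 232 CPM in Nkg7-high T cells, which was not called, while it was above the 12.3 and 16.5 CPM of Nkg7-low T cells (log2 difference 4.49 ± 0.20, adjusted p = 0.0013). Klrd1 followed Klre1, at 739 and 693 CPM in NK-like cells against 475 and 527 CPM in Nkg7-high T cells (adjusted p = 0.318) and 69.1 and 88.4 CPM in Nkg7-low T cells (log2 difference 3.07 ± 0.18, adjusted p = 0.00175). Klrc3 and Ly49s7 were also called higher in both comparisons, but each has near-identical family members among which UMIs may be divided.

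The 250 bases before the start of 4 of these genes are shown because the genes were high together in NK-like cells. The sequences are from RefSeq, build GRCr8, 5' to 3' on the strand of each gene: Klrb1a at chr4:163590148-163590397 (minus strand), Klri1 at chr4:164904869-164905118 (minus strand), Klri2 at chr4:164947505-164947754 (minus strand) and Prf1 at chr20:29788790-29789039 (plus strand). Capitals mark the letters of RUNX (TGTGGT or ACCACA), ETS (AGGAAG or CTTCCT) and T-box (GGTGTG or CACACC) motifs, searched on both strands.
Klrb1a: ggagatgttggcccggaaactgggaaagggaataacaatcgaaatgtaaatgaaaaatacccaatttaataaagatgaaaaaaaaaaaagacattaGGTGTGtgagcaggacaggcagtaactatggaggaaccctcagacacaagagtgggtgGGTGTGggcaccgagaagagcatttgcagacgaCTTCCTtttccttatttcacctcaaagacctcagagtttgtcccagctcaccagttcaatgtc
Klri1: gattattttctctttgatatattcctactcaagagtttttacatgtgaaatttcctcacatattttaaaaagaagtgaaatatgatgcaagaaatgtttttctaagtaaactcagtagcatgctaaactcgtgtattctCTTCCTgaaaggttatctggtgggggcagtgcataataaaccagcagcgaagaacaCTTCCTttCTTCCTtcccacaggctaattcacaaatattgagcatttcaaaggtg
Klri2: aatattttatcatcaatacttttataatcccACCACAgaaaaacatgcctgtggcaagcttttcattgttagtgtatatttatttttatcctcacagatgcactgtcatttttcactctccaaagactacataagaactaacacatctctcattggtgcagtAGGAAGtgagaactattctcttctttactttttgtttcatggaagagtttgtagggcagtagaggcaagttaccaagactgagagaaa
Prf1: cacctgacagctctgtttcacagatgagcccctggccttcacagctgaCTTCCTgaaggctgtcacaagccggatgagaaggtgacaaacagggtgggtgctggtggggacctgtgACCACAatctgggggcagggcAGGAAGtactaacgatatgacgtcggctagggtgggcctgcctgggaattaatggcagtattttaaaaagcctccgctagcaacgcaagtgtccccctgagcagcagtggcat
All 4 hold an ETS motif, Klri2 and Prf1 hold a RUNX motif, and Klrb1a holds 2 T-box motifs. Of all 33469 promoters of this length, 29.5% hold the ETS, 14.5% the RUNX and 15.4% the T-box motif. Among the 107 promoters matched to genes higher than in Nkg7-high T cells, the shares were 29.0%, 12.1% and 11.2%. A match is a run of letters and no evidence of binding.

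**Figure D2:**
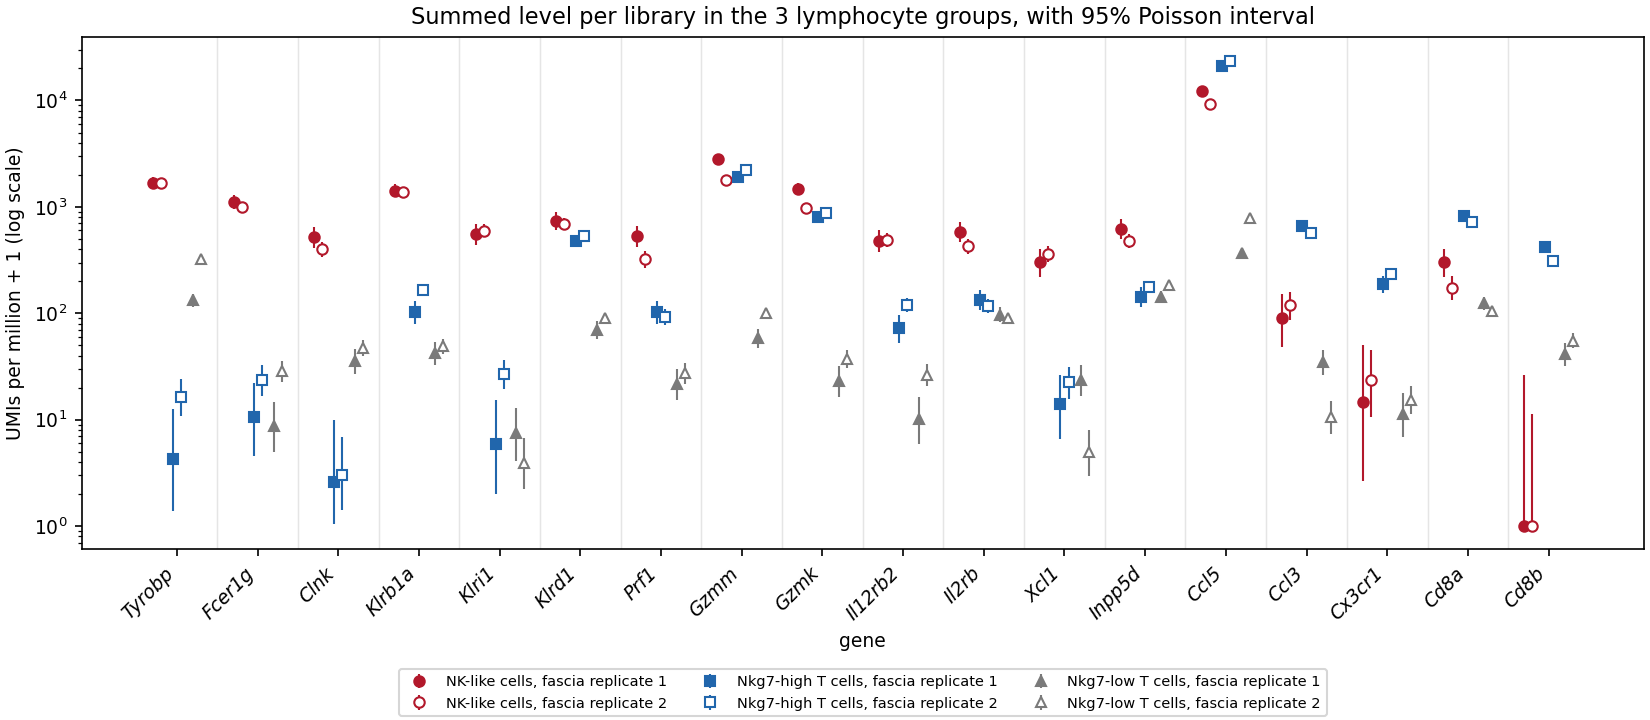
Level of 18 genes (CPM + 1, log axis) in NK-like, Nkg7-high T and Nkg7-low T cells of fascia replicate 1 (filled) and 2 (open), with exact 95% Poisson intervals. Tyrobp, Fcer1g, Clnk and Klri1 are far above both T cell groups, Gzmm, Gzmk and Klrd1 lie near Nkg7-high T cells, and Ccl3, Cx3cr1, Cd8a and Cd8b lie below Nkg7-high T cells.

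Nkg7, by which the T cells were divided, is itself a granule gene, so cytotoxic granule genes are not independent of that division. Of 16 tested, Prf1 alone was called against Nkg7-high T cells (534 and 321 CPM in NK-like cells against 102 and 91.1 CPM, log2 difference 1.97 ± 0.23, adjusted p = 0.0145). The list's median there was -0.04. Against Nkg7-low T cells 7 were higher and 1, Srgn, which encodes the granule proteoglycan serglycin, was lower. The granzyme genes Gzmm and Gzmk had 2834 and 1771 CPM and 1472 and 983 CPM in NK-like cells, against 1903 and 2236 CPM and 796 and 876 CPM in Nkg7-high T cells. In Nkg7-low T cells Gzmm had 57.5 and 98.8 CPM, and Gzmk had 36.3 CPM at most. Only the differences from Nkg7-low T cells passed the test (4.76 ± 0.33 and 5.25 ± 0.31, adjusted p = 0.00191 and 0.00175). Gzma, a tryptase, was uneven between libraries, with 1040 and 67.0 CPM in NK-like cells and 56.5 and 52.9 CPM in Nkg7-high T cells, and was not called there.

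Of 24 tested genes of the cytokine receptor list, which also holds Jak, Stat and Socs family genes downstream of the receptors, 3 were higher and 0 lower than in Nkg7-high T cells. Il12rb2, which encodes the signalling chain of the interleukin-12 receptor, had 479 and 489 CPM, against 71.0 and 118 CPM in Nkg7-high and 9.04 and 25.5 CPM in Nkg7-low T cells (log2 differences 2.24 ± 0.27 and 4.68 ± 0.30, adjusted p = 0.0157 and 0.00191). Il2rb, which encodes the chain shared by the interleukin-2 and interleukin-15 receptors, had 582 and 425 CPM, against 132 and 116 CPM in Nkg7-high and 96.3 and 88.4 CPM in Nkg7-low T cells. Ifngr1, which encodes an interferon gamma receptor chain, had 568 and 553 CPM, against 226 and 206 CPM in Nkg7-high and 156 and 170 CPM in Nkg7-low T cells. Il2ra, which encodes the high-affinity interleukin-2 receptor chain, was lower than in Nkg7-low T cells, with 0 and 22.3 CPM against 573 and 570 CPM (log2 difference -5.26 ± 0.52, adjusted p = 0.00525).

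Transcription factor genes split in both directions. Of 29 tested, 3 were higher and 3 lower than in Nkg7-high T cells, and 5 were higher and 3 lower than in Nkg7-low T cells. Tbx21, which encodes T-bet, had 376 and 330 CPM in NK-like cells, against 207 and 271 CPM in Nkg7-high T cells (not called) and 107 and 80.1 CPM in Nkg7-low T cells (log2 difference 1.81 ± 0.23, adjusted p = 0.0125). Eomes, which encodes a T-box factor of NK development, was low at 47.9 and 55.9 CPM, against 8.07 and 13.4 CPM in Nkg7-high T cells (not called) and 3 UMIs in all over Nkg7-low T cells. The ratio to Nkg7-low T cells was 77.3 (95% counting interval 23.8 to 398). Runx3, known for cytotoxic programs, had 548 and 486 CPM, against 223 and 259 CPM in Nkg7-high and 118 and 137 CPM in Nkg7-low T cells. It was called in both comparisons (0.96 ± 0.16 and 1.90 ± 0.17, adjusted p = 0.0454 and 0.00397), but not against Nkg7-high T cells in DESeq2 (adjusted p = 0.0857). Zeb2, a factor of late NK maturation, was lower than in Nkg7-high T cells, with 171 and 352 CPM against 599 and 828 CPM, and higher than in Nkg7-low T cells, with 86.6 and 131 CPM. The difference from Nkg7-low T cells was not called without cells 1, 6 and 10 (adjusted p = 0.256), without doublets (0.0939), without the block (0.102), at 5 Nkg7 UMIs or more (0.139) or in DESeq2 (0.0540), and that from Nkg7-high T cells was not called without the block (0.0751).

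Of 12 cytokine and chemokine genes tested, 1 was higher and 1 lower than in Nkg7-high T cells, and 3 were higher and 2 lower than in Nkg7-low T cells. Ccl5 was the most abundant of them, with 12169 and 9216 CPM in NK-like cells, against 20914 and 23746 CPM in Nkg7-high and 368 and 783 CPM in Nkg7-low T cells. It was higher than in Nkg7-low T cells by 4.16 ± 0.31 (adjusted p = 0.00228), and the difference from Nkg7-high T cells was not called (adjusted p = 0.105). Xcl1, which encodes lymphotactin, an attractant of cross-presenting dendritic cells, had 301 and 363 CPM in NK-like cells, against 12.9 and 21.4 CPM in Nkg7-high and 22.6 and 3.95 CPM in Nkg7-low T cells (log2 differences 4.06 ± 0.64 and 4.81 ± 0.65, adjusted p = 0.0378 and 0.0148). Ccl3 was lower than in Nkg7-high T cells, with 89.0 and 117 CPM against 665 and 564 CPM (log2 difference -2.56 ± 0.45, adjusted p = 0.0483), close to the threshold. It was not called with RLE size factors (adjusted p = 0.0502) or a mitochondrial limit of 10% (adjusted p = 0.0881). Ccl4 had 315 and 1852 CPM in NK-like cells and 2352 and 2278 CPM in Nkg7-high T cells, and was not called between them.

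Several genes of mature circulating NK cells and of trafficking were lower than in Nkg7-high T cells. Cx3cr1, which encodes the fractalkine receptor, was lower than in Nkg7-high T cells, with 13.7 and 22.3 CPM against 186 and 233 CPM (log2 difference -3.57 ± 0.29, adjusted p = 0.00694), and had UMIs in 5 of 50 NK-like cells. Klf2, which encodes a factor that sustains tissue exit, was lower than in Nkg7-high T cells as well, with 205 and 254 CPM against 1293 and 859 CPM (adjusted p = 0.0143). Of 15 tested genes of the mature circulating list 4 were lower than in Nkg7-high T cells, and of 22 trafficking genes 5 were lower, Cxcr6, Itga4 and Itgb1 among the lower ones. The tissue-resident and ILC1 list, which also holds Xcl1, had 1 of 17 genes higher and 1, Cxcr6, lower. Among its abundant members that were not called were Rora at 575 and 961 CPM in NK-like cells and 352 and 406 CPM in Nkg7-high T cells, and Cd69, an early activation and retention gene, at 240 and 430 CPM and at 160 and 205 CPM.

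The inhibitory receptor list, which also holds phosphatase genes, had 1 of 10 tested members higher than in Nkg7-high T cells. Against Nkg7-low T cells 5 were higher and 1 lower. The member called against Nkg7-high T cells was Inpp5d, which encodes the phosphatase SHIP1 and no receptor. Inpp5d had 623 and 475 CPM in NK-like cells, against 142 and 176 CPM in Nkg7-high and 141 and 181 CPM in Nkg7-low T cells (1.64 ± 0.20 and 1.64 ± 0.20, adjusted p = 0.0164 and 0.0102). Klrg1, a receptor for cadherins, had 157 and 134 CPM in NK-like cells, 56.5 and 71.0 CPM in Nkg7-high T cells, and no UMI in either library of Nkg7-low T cells. It was thus at least 203-fold higher than in Nkg7-low T cells, with the floor set at 3 UMIs over the group. Pdcd1, which encodes PD-1, was lower than in Nkg7-low T cells, with 0 and 2.79 CPM against 147 and 88.0 CPM.

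T cell genes beyond the gate were lower for 9 of 23 tested members against Nkg7-high T cells and for 6 against Nkg7-low T cells, and this list is not independent of the Cd3 gate. Cd8b, which encodes the beta chain of the T cell coreceptor CD8, had no UMI in any fascia NK-like cell, against 418 and 307 CPM in Nkg7-high T cells, and was at least 57.0-fold lower. Cd8a, which encodes the alpha chain that rat NK cells are known to carry without the beta chain, had 301 and 173 CPM in NK-like cells, against 822 and 720 CPM in Nkg7-high and 123 and 105 CPM in Nkg7-low T cells. Its log2 difference from Nkg7-high T cells was -1.89 ± 0.19 (adjusted p = 0.0101) and had UMIs in 30 of 50 NK-like cells, against 0.274% and 0.362% of cells without Ptprc. Cd5 and Trat1, a signalling brake and an adaptor of the T cell receptor, had 13.7 and 8.38 CPM each in NK-like cells, against 142 and 137 CPM and 144 and 129 CPM in Nkg7-high T cells. Satb1 and Lef1, factors best known from T cell development, were higher than in Nkg7-high T cells, Lef1 with an adjusted p of 0.0482 that did not hold in DESeq2 (adjusted p = 0.148), without the block (0.223), without cycling cells (0.182) or at Nkg7 limits of 2 or 5 UMIs (0.0532 and 0.0525).

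Of 4 tested genes of type 2 and type 3 innate lymphoid cells, 0 were called against Nkg7-high T cells in edgeR or DESeq2 and 0 had an unadjusted p under 0.05, while 2, Il23r and Il1rl1, were lower than in Nkg7-low T cells. Il23r, the interleukin-23 receptor gene of type 3 cells and of interleukin-17-producing T cells, had no UMI in NK-like or Nkg7-high T cells and 245 and 324 CPM in Nkg7-low T cells. Nkg7-low T cells also held Scart1, a scavenger receptor gene of mouse gamma delta T cells, at 245 and 285 CPM, and Blk, a Src family kinase gene, at 108 and 140 CPM, both at 0 in NK-like cells. Il23r, Scart1 and Blk were at least 49.7-fold, 45.5-fold and 21.6-fold lower in NK-like cells, and DESeq2 did not call them (adjusted p = 0.618, 0.634 and 0.777). Gata3, a factor of type 2 cells and T cells, had 110 and 109 CPM in NK-like cells and was not called.

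Antigen presentation genes included 3 of 11 lower and 0 higher than in Nkg7-high T cells, namely B2m (4873 and 5244 CPM in NK-like cells against 8294 and 8544 CPM, log2 difference -0.86 ± 0.10, adjusted p = 0.0151), Psmb8 and RT1-Db1. Immediate early (14 tested), heat shock (9), cell cycle (19) and interferon response (10) genes had 0 calls in either comparison in edgeR. These counts include cells 1, 6 and 10 of fascia replicate 2. Against Nkg7-high and Nkg7-low T cells, unadjusted p-values under 0.05 were found for 0 and 0 immediate early, 5 and 2 heat shock, 5 and 5 cell cycle and 2 and 3 interferon response genes. DESeq2 called Stmn1 against Nkg7-high and Tk1 against Nkg7-low T cells, both of the cell cycle list, and 0 genes of the other 3 lists. Markers of other cells were checked beside these results. Fibroblast markers summed to 233 and 2330 CPM in NK-like cells and 4073 and 4453 CPM in Nkg7-high T cells, and erythroid markers to 41.1 and 24020 CPM and to 48.4 and 180 CPM. In Nkg7-low T cells fibroblast markers summed to 2567 and 1658 CPM and erythroid markers to 1112 and 5102 CPM. Macrophage markers summed to 20.5 and 27.9 CPM in NK-like cells, and mast cell markers were at 0. B and plasma cell markers summed to 13.7 and 8.38 CPM in NK-like cells, against 1.61 and 41.5 CPM in Nkg7-high and 1138 and 191 CPM in Nkg7-low T cells, and 1 of 3 tested, Blnk, a B cell adaptor gene, was lower than in Nkg7-low T cells. The part of B cell RNA in the comparison with Nkg7-low T cells was not tested. Of 7 fibroblast and 3 erythroid markers tested, 0 were called in either comparison in edgeR. Unadjusted p-values under 0.05 were found for 4 and 2 of them against Nkg7-high T cells and for 0 and 0 against Nkg7-low T cells, and DESeq2 called Col1a1 against Nkg7-high T cells. The part of this RNA in single results was not tested beyond leaving out cells 1, 6 and 10.

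**Figure D3:**
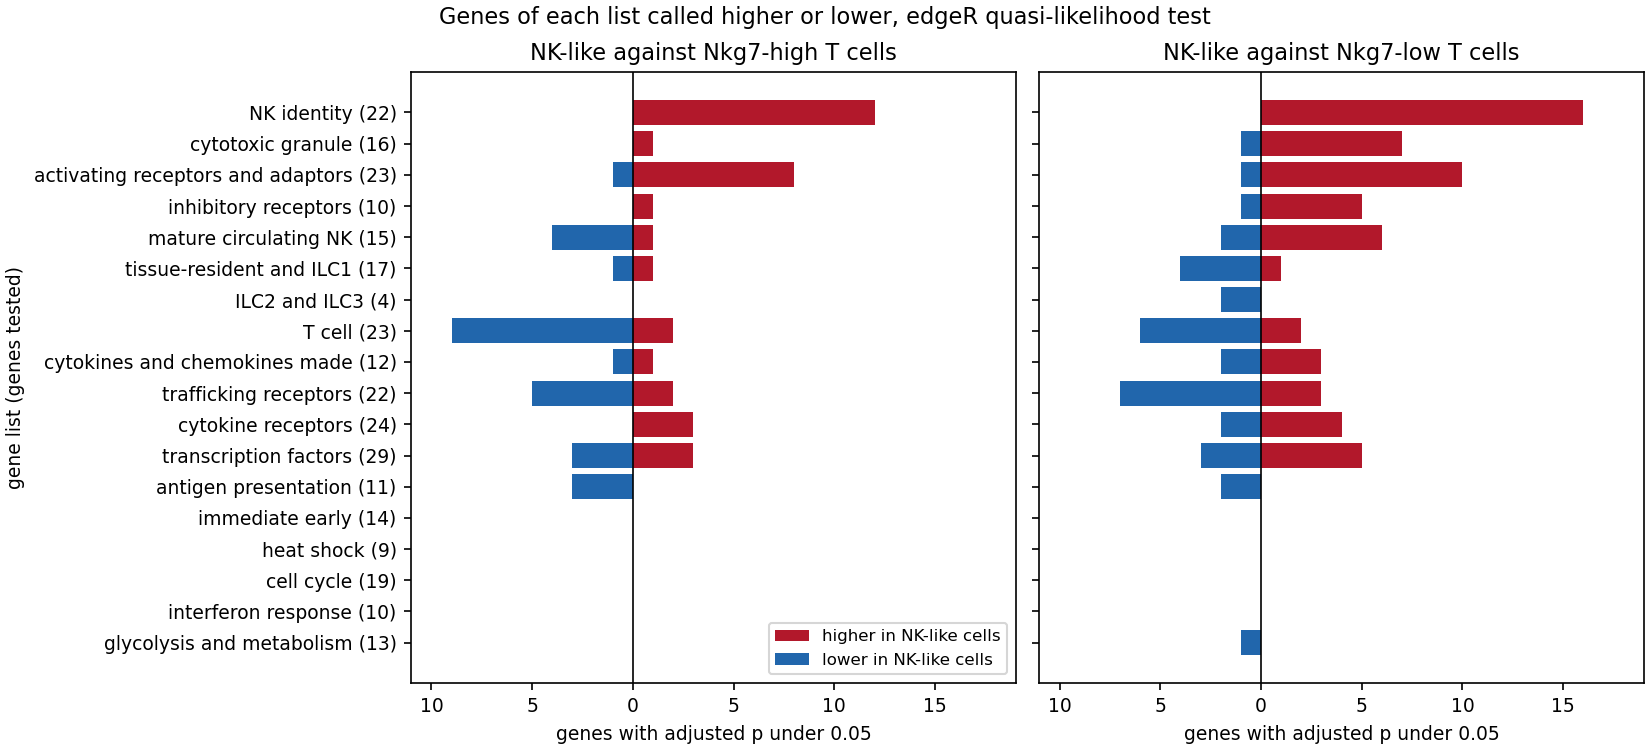
Number of genes of each list called higher (right) or lower (left) in NK-like cells than in Nkg7-high T cells (left panel) and Nkg7-low T cells (right panel), with the number tested in brackets. NK identity has 12 and 16 higher genes and none lower, cytotoxic granule genes have 1 and 7 higher, and the stress, cell cycle and interferon lists have 0 in edgeR.

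Among the called genes outside these lists with the largest differences were Cpne4, Ankrd6 and Kcnk1, which had no UMI in Nkg7-high T cells and were at least 86.6-fold, 39.1-fold and 33.5-fold higher. Cpne4, which encodes a calcium-dependent membrane-binding copine, had 274 and 61.5 CPM in NK-like cells. Kcnk1, a potassium channel gene, had 61.6 and 41.9 CPM in NK-like cells and 64.0 and 59.6 CPM in Nkg7-low T cells, where it was not called. Emb, which encodes the membrane protein embigin, was alike in this, with 335 and 497 CPM in NK-like cells, 6.46 and 2.68 CPM in Nkg7-high T cells and 274 and 240 CPM in Nkg7-low T cells. Scin, which encodes an actin-severing protein, had 75.3 and 58.7 CPM in NK-like cells and 1 UMI in all over Nkg7-high T cells. Cd24, a surface glycoprotein gene, had 41.1 and 212 CPM in NK-like cells and 3 UMIs in all over Nkg7-high T cells. Among the genes furthest lower, Gimap9, a small GTPase gene of lymphocytes, had no UMI in NK-like cells and 92.0 and 92.5 CPM in Nkg7-high T cells, at least 15.5-fold lower. Fas, the death receptor gene, had 6.84 and 2.79 CPM, or 1 UMI in each library, against 67.8 and 75.0 CPM in Nkg7-high T cells (ratio of T to NK-like 18.4, 95% counting interval 5.00 to 153).

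The NK-like cells also differed among themselves. Ccl5 ranged from 0 to 390 UMIs per cell in fascia replicate 1 (median 109.5) and from 0 to 289 in fascia replicate 2 (median 78). The 4 cells without Ccl5 all had UMIs of Klrb1a and of Il7r, which encodes the interleukin-7 receptor chain, and none had Prf1 or Gzmk. Their Il7r UMIs were 17, 7, 1 and 3 and their Rora UMIs 14, 7, 13 and 5, while Il7r was detected in 13 of all 50 cells. Rora was not particular to them. It had 38 and 26 UMIs in cells 7 and 13 of fascia replicate 2, which held Ccl5, and 0 in cell 3, which also held Ccl5. This subset and Il7r were chosen after their values were seen, and the cells are too few for a test.

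Gzma was held by few cells. Of 12 cells in fascia replicate 1, 3 had it, and 2 of them carried 81 and 68 UMIs of the 152 in that library. In fascia replicate 2, 8 of 38 cells had it, with a highest count of 13. Ccl4 was likewise uneven, with a median of 1 and 2 UMIs per cell and 4 cells of fascia replicate 2 at 50 or more, up to 266. Of these 4 cells, 3 also held at least 100 UMIs of immediate early genes, which respond within minutes to stimulation and to tissue dissociation. Over all 50 cells, 8 held that many, among them cells 1 and 10 of fascia replicate 2. Cycling cells, with at least 100 UMIs of the cell cycle list, numbered 3 of 12 and 1 of 38. Without them the NK-like sum fell from 146108 to 81359 UMIs in fascia replicate 1. In fascia replicate 2 it fell from 357951 to 340596 UMIs. Levels of fascia replicate 1 thus rest in large part on 3 cells. Top2a, which encodes a topoisomerase of dividing cells, had 424 and 95.0 CPM in NK-like cells and 35.5 and 97.2 CPM in Nkg7-high T cells, and was not called. With cycling cells left out of the NK-like and both T cell groups, the calls against Nkg7-high T cells were 307.

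**Figure D4:**
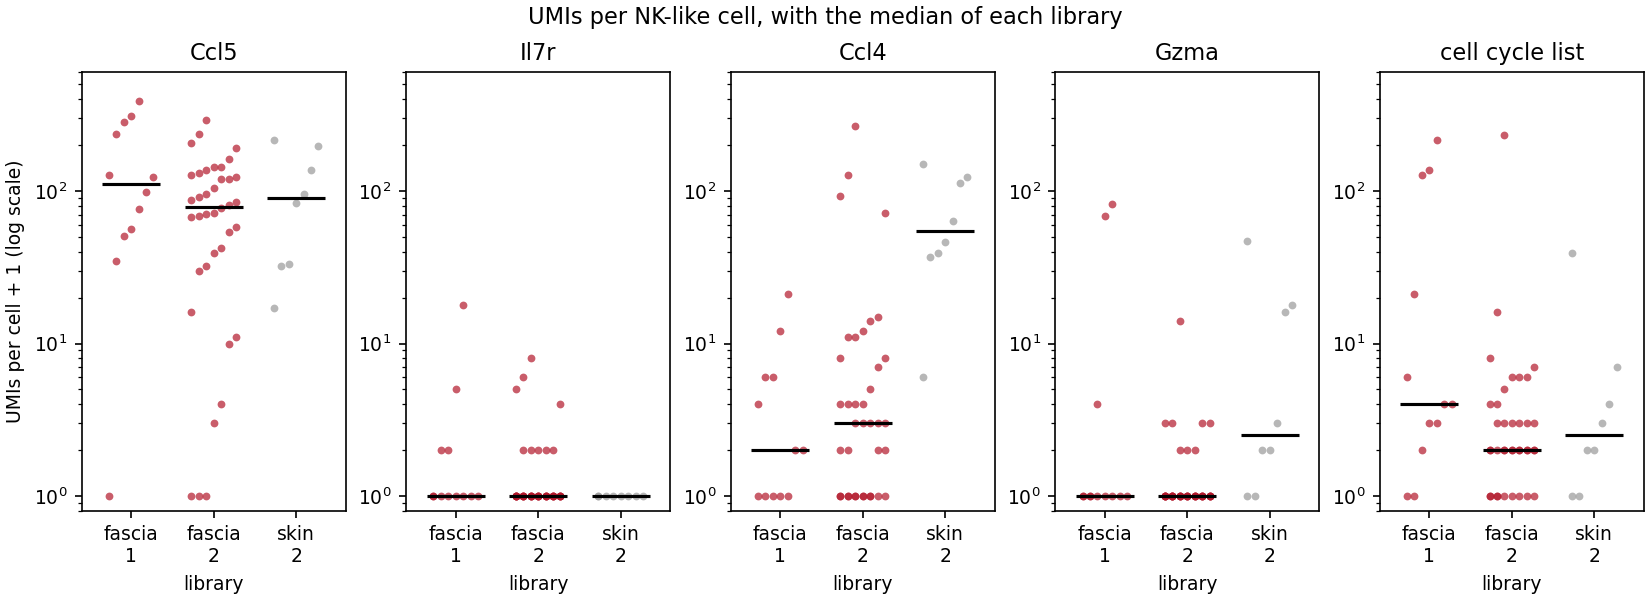
UMIs + 1 per NK-like cell (log axis) of Ccl5, Il7r, Ccl4, Gzma and the summed cell cycle list in fascia replicates 1 and 2 and skin replicate 2, with the median of each library as a line. Ccl5 is at 0 in 1 of 12 and 3 of 38 fascia cells, Gzma is held mostly by 2 cells of fascia replicate 1, and 4 fascia cells stand apart in the cell cycle list.

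Beside all other kept fascia cells, which is a description because the gate chose the cells, the gene with the highest ratio in its weaker library was RGD1559482, known only by an identifier here. It had 260 and 148 CPM in NK-like cells and 0.607 and 0.654 CPM elsewhere, ratios of 428 and 226. Gzmbl2 had ratios of 163 and 115, Prf1 of 451 and 109, Xcl1 of 115 and 106, Klrg1 of 314 and 83.0, and Il12rb2 of 128 and 59.2. Gzmbl2 and Mcpt9 (ratios 146 and 102) belong to rat granule protease families with near-identical copies, so their UMIs may be divided among paralogs. Tyrobp and Klrb1a are not among the 15 leading genes because other fascia cells hold them, Tyrobp at 435 and 670 CPM.

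In skin the same gate found 0 of 7460 cells in replicate 1 and 8 of 16442 in replicate 2. NK-like cells made up 0.176% (exact 95% interval 0.0911% to 0.308%) and 0.542% (0.384% to 0.744%) of kept cells in fascia, against 0% (exact upper limit 0.0494%, or 0.0402% by the floor of 3 counts) and 0.0487% (0.0210% to 0.0958%) in skin. Both fascia shares lay above both skin shares, with an exact two-sided permutation p of 0.333, the smallest that 2 against 2 libraries allow. The order depended on the denominator. Of cells with Ptprc, the leukocyte common antigen gene, NK-like cells were 0.579% and 1.21% in fascia, against 0% and 1.29% in skin (p = 1, exact permutation test). For the 0 of 422 cells in skin replicate 1 the exact upper limit was 0.870%, or 0.711% by the floor of 3 counts. Per 100 T cells of both kinds there were 5.74 and 7.87 NK-like cells in fascia and 0 and 6.90 in skin. Skin replicate 2 was shallower, with a median of 2352.5 UMIs per kept cell against 9039.5 to 12908 in the other libraries. After thinning every cell to 2000 UMIs the shares were 0.150% and 0.385% in fascia and 0% and 0.0427% in skin.

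**Figure D5:**
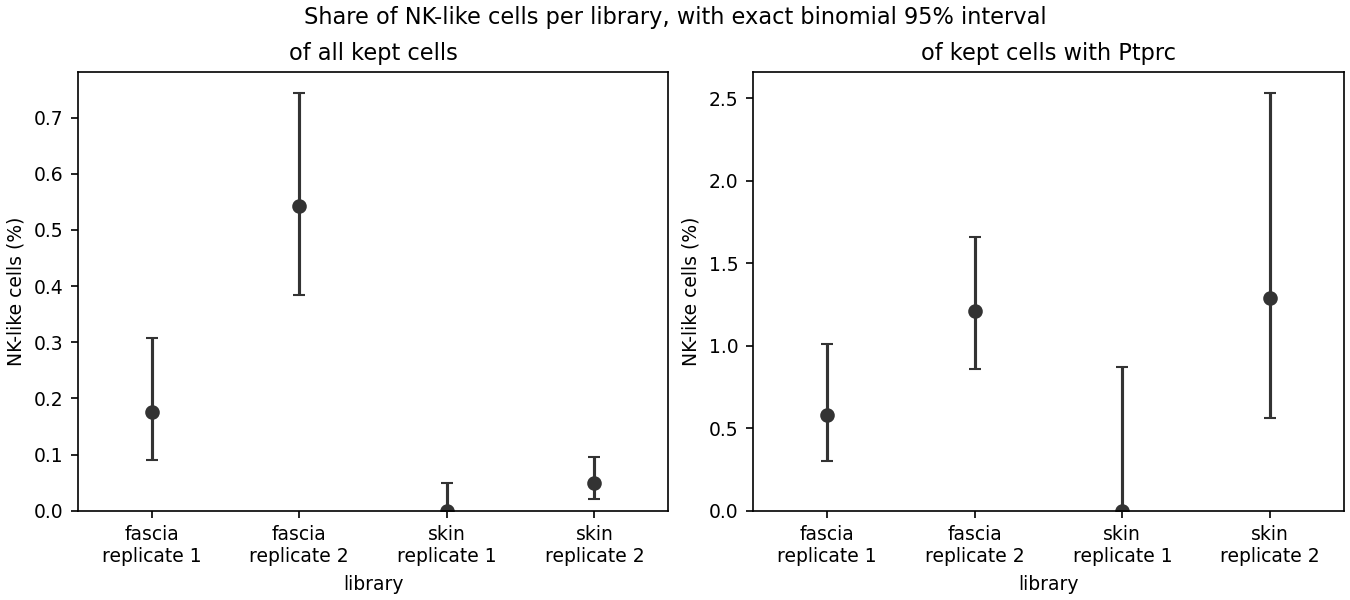
NK-like cells as a percentage of all kept cells (left) and of kept cells with Ptprc (right) in each library, with 95% Clopper-Pearson intervals for counting error. Fascia libraries (0.176% and 0.542%) lie above skin libraries (0% and 0.0487%) on the left, while skin replicate 2 (1.29%) reaches fascia replicate 2 (1.21%) on the right.

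The 8 skin cells were too few for a test, and their levels are set beside fascia with Poisson intervals that cover counting error only. Cells 1 and 2 of skin replicate 2 held 799 and 398 UMIs of keratinocyte markers, against at most 6 in the other skin cells and 1 in a fascia NK-like cell, and 61.3% of the UMIs of the skin sum. Without them 6 skin cells were left, or 0.0365% of kept cells and 0.969% of cells with Ptprc. Klrb1a (1459 CPM, 95% interval 1187 to 1774), Klri1 (584, 417 to 795) and Prf1 (452, 307 to 642) lay within or beside the fascia values of 1424 and 1380, 554 and 598, and 534 and 321 CPM, but without cells 1 and 2 they stood at 2638 (2057 to 3333), 1018 (671 to 1481) and 1131 CPM (763 to 1614). Fcer1g was at 1109 and 1006 CPM in fascia and 408 CPM (271 to 590) in skin, or 603 CPM (345 to 979) without cells 1 and 2. Ccl4 was at 315 and 1852 CPM in fascia and 8329 CPM (7660 to 9042) in skin, and Gzmbl2 at 322 and 648 CPM in fascia and 3107 CPM (2704 to 3554) in skin. Without cells 1 and 2 the skin values were 17714 CPM for Ccl4 and 7274 CPM for Gzmbl2, so skin levels depend on these cells by over 1.5 times. In Nkg7-high T cells of skin replicate 2, Ccl4 stood at 4147 CPM and Gzmbl2 at 2393 CPM, above their fascia counterparts too. The immediate early gene Fos had 192 and 860 CPM in fascia NK-like cells and 5004 CPM in skin, or 6257 CPM without cells 1 and 2. The part of dissociation or depth in these values was not tested, and with 1 skin library that held such cells the tissue cannot be told apart from the library.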

How the data were processed

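The authors deposited raw UMI counts per gene and barcode. Reads were aligned with STAR in Cell Ranger 6.0.1 per the submitters' processing notes, while the file headers name Cell Ranger 7.0.0, and the notes name the builds mRatBN7.2 and GRCh38.p13. Whether intronic reads were counted is not given in the sources used here. The 4 libraries held 83852172 to 95777810 UMIs in 7697 to 17527 barcodes. Counts were gated per cell and summed per library and cell group. They were compared in R 4.3.3 by the quasi-likelihood test of edgeR 4.0.16, after filterByExpr and TMM scaling. P-values were adjusted after Benjamini-Hochberg and called under 0.05. The standard errors (SE) given were derived from the test, as the absolute log2 difference over the square root of its F statistic. On simulated data this found 10.8% and 9.68% of 2-fold changes against Nkg7-high and Nkg7-low T cells. Of 4-fold changes it found 60.2% and 66.7%. The simulation gave every gene the same dispersion (0.0371) and no difference between libraries other than depth, so these shares may differ for the real counts. The fit had been planned for at least 20 cells per group and library. It was run with at least 5 because fascia replicate 1 held 12 NK-like cells, a choice made after the cell numbers were seen. For the same reason skin was not tested. Doublets were marked with Scrublet in Scanpy 1.11.5 and kept, except in 1 alternative. In both skin libraries the top-scoring 0.8% per 1000 cells were marked instead. Fold bounds take 3 UMIs over the group for a sum of 0. Intervals are exact at 95%.

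The genes named are the 12 called genes furthest in each direction per comparison with at least 50 CPM in the higher group, the 15 with the largest ratio to other fascia cells, up to 6 members of each list by level, and Klrd1 and Prf1, of which some are not reported here. The members and lists were chosen with earlier results of these data known. Within the NK-like sums the deviations of the 2 libraries correlated with those of Nkg7-high T cells at 0.181 and with those of Nkg7-low T cells at -0.026 over 9480 genes. The alternatives were DESeq2 1.42.0, other scaling, filters and gates, no block, each library left out, and 3 added after the data were seen (fascia cells with RNA of other lineages, cycling cells, skin cells with keratinocyte RNA).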

Additional observations from a re-analysis of the deposited data

How the results depend on the processing

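None of 115 called differences of named genes reversed under any alternative, and 98 stayed called under every one that gives a test. In 1 library alone, where no test is possible, all kept their sign, and 58 moved by over 1.5 times in fold in at least 1 of the libraries, so the values of each library are printed. Calls against Nkg7-high and Nkg7-low T cells, 203 and 408 as reported, came to 451 and 682 with doublets left out of all 3 cell groups, to 576 and 824 without cells rich in haemoglobin, fibroblast or mural RNA, and to 859 and 1155 with no filter on low counts. Without cycling cells of any group there were 307 calls against Nkg7-high T cells. Before adjustment, 1537 and 1712 genes had p under 0.05. With no replicate block there were 274 and 473 calls. The block is the library, from which all 3 cell groups came. No paired analysis of fascia against skin was possible because skin replicate 1 held no NK-like cell. Requiring also 0 UMIs of Cd8a and Cd8b left 2 cells in fascia replicate 1, and that gate could not be fitted; it gave a share of 0.0294% and 0.257% in fascia and a difference from skin of 0.140 percentage points. The share difference of 0.335 percentage points between fascia and skin was 0.248 over cells with Ptprc and 0.246 after thinning, and without each library in turn it lay between 0.152 and 0.518. The 146108 and 357951 UMIs of the NK-like sums make 1 UMI worth 6.84 and 2.79 CPM, which limits what can be read from low values.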

Other observations

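Klrb1a UMIs were not restricted to cells with Ptprc. Among kept cells without Ptprc it had a UMI in 26.9% and 20.0% of cells in fascia replicates 1 and 2, at 26.5 CPM in replicate 1, whereas Klri1 had one in 0.232% and 0.207% of the same cells and Klrd1 in 0.232% and 0.595%. In Nkg7-low T cells Klrb1a had UMIs in 36 of 144 and 86 of 316 cells, and in NK-like cells in 12 of 12 and 37 of 38. Which cells without Ptprc carry these molecules was not tested.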
